A study of Homo sapiens with 12 samples.

Results

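The 40 genes described here carry out or restrain apoptosis, and they were chosen by name from 20037 protein-coding genes of the RefSeq table for GRCh38.p14. They comprise 5 pro-survival members of the BCL2 family, 3 BAX-like effectors, 8 BH3-only proteins, 6 mitochondrial factors including the apoptosome, 6 genes for caspases and the caspase-8 regulator CFLAR, 7 death receptor genes with their ligand and adaptors, and 5 inhibitor of apoptosis proteins (IAPs). All 40 were found in the table. For each gene and library, the tallest peak was taken among peaks with a height (pileup, the depth of overlapping fragments at the peak's summit) of at least 3 that touched the gene's span or the 1 kb on either side. A gene without such a peak was given the height 0. It is described as having no peak, although lower peaks may be present.

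Open chromatin was profiled by ATAC-seq, in which a transposase cuts and tags accessible DNA, in 2 established lines of human oesophageal squamous cell carcinoma, KYSE150 and KYSE510. Each line was studied as control cells and after silencing of HCP5, a long non-coding RNA, with 3 libraries in each of the 4 groups and 12 in all. The labels give no more on the 4 groups than KYSE150 control, KYSE150 HCP5-silenced, KYSE510 control and KYSE510 HCP5-silenced. All cells were grown in RPMI medium with serum, and neither the means of silencing nor the nature of the control is given in the sources used here.

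Apoptosis runs along an intrinsic and an extrinsic route. In the intrinsic route, BH3-only proteins neutralise the pro-survival BCL2 proteins or engage BAX and BAK1 directly, the outer mitochondrial membrane is breached, and released cytochrome c (CYCS) joins APAF1 in the apoptosome that activates caspase-9. In the extrinsic route, FAS and the TRAIL and TNF receptors recruit caspase-8, CFLAR restrains that step, and the IAPs block caspases or, as BIRC2 and BIRC3, place ubiquitin on signalling proteins of the TNF receptor complex.

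Peaks of height 3 or more numbered 52869 to 63295 per library in KYSE150 and 104208 to 123109 in KYSE510, with a median height of 5 in all 12 libraries. The third silenced library of KYSE150 held the fewest. Read depth is unknown, and its stand-in, the background implied by each list, ran from 0.083 up to 0.108 in KYSE150 and from 0.18 up to 0.217 in KYSE510. Heights therefore serve as descriptions within a line, and comparisons were made on ranks within a library. Of 12 squamous epithelial markers, 9 had a peak in every KYSE150 library (60.9% of all genes) and 11 in every KYSE510 library (72.7%). KRT14 had none in KYSE150. The tallest peak at the HCP5 gene was 0, 0 and 3 in KYSE150 control, 0, 3 and 4 in KYSE150 silenced, 16, 17 and 8 in KYSE510 control and 23, 9 and 20 in KYSE510 silenced libraries. Accessibility of that locus does not measure its RNA, so it is no check of the silencing.

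The 250 bases before the start site were read from RefSeq promoters of GRCh38.p14 for 32 of the 40 members. BCL2L2, BIK, BIRC5, CASP10, MCL1, TNFRSF10A, TNFRSF10B and TRADD had no entry. The promoters of 5 members are printed 5′ to 3′ because the leading site of each gene (the merged site that was its tallest in the largest number of libraries) lay over it and because results turn on these genes: BIRC3 and CASP8 differed between the lines, BIRC2 is the neighbour of BIRC3, BAX was without a peak in 1 library only, and CYCS stood highest in KYSE150. Capitals mark motif matches on either strand: the E-box CACGTG, the AP-1 motif TGANTCA, the CCAAT box, the GC box GGGCGG, the ETS motif CCGGAAG and the TATA box TATAAA. The NF-kB and p53 consensus sequences were searched too and were added after values had been seen.
BIRC3 (chr11:102317234-102317483, plus strand): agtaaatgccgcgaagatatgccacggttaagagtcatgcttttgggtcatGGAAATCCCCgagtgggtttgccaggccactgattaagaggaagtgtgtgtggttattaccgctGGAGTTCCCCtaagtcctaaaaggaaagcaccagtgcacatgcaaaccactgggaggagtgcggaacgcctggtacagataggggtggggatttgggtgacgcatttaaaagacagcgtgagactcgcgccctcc
BIRC2 (chr11:102346964-102347213, plus strand): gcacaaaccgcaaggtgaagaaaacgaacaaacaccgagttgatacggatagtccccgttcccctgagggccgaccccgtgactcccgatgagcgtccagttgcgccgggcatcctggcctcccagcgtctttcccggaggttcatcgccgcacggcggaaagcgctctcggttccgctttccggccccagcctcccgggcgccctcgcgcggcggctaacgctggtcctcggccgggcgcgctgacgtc
CASP8 (chr2:201233213-201233462, plus strand): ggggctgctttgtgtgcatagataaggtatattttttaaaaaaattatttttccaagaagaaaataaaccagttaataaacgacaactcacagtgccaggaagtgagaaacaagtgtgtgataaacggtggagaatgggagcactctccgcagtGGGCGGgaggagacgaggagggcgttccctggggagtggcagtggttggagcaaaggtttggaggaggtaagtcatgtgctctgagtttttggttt
BAX (chr19:48954625-48954874, plus strand): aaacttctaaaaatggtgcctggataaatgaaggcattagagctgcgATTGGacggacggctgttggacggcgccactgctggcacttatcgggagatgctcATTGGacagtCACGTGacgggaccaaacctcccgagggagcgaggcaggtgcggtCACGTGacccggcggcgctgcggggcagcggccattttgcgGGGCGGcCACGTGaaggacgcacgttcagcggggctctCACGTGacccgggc
CYCS (chr7:25125261-25125510, minus strand): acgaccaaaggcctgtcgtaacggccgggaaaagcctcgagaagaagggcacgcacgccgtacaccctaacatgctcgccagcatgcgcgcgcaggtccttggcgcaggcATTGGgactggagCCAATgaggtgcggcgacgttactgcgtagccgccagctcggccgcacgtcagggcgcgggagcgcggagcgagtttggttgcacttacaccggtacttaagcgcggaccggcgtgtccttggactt
The BIRC3 promoter held 2 matches to the NF-kB consensus, beginning 199 and 135 bases before the start site, and none of the other motifs. The BIRC2 promoter held none of the motifs searched. In BAX, 4 E-boxes began 138, 93, 45 and 14 bases before the start site, and 5 of 15842 promoters (0.0316%) had 4 or more.

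Among the 32 members with a promoter, the E-box was present in 3 (BAX, BBC3 and TP53AIP1), against 7.84% of all promoters of the same length. The AP-1 motif was present in FAS and BBC3, against 5.04% of promoters. The CCAAT motif occurred in 13 members, against 34.5% of promoters, and the GC box in 21, against 56%. The ETS motif occurred in CASP9 alone, against 11.8%, and the TATA box in BCL2L1, BCL2A1 and RIPK1, against 9.23%. The NF-kB consensus was found in BIRC3, BIRC6, CFLAR and BMF, against 5.67% of promoters, and it overlapped a GC box in BIRC6 and CFLAR. The p53 consensus was found in BAK1, against 5.1% of promoters. A match describes the letters of the window and is not a measured binding site. The median GC content was 64.8% over the members' promoters and 62.4% over all promoters.

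Most of the apoptosis genes were accessible in both lines. In KYSE150, 36 of the 40 had a peak in every library, against 60.9% of all protein-coding genes, and in KYSE510 38 had one, against 72.7%. In both lines together 35 did, against 59.4% of genes. The members' median span was 22.3 kb and that of all genes 24.1 kb. When only a peak over the annotated start site was accepted, 15 of 32 members had one in every KYSE150 library (27.6% of genes) and 17 in every KYSE510 library (35.6%).

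Heights were not extreme for accessible genes. The percentile of a peak is its place among all peaks of height 3 or more in its library, and the median over members with a peak in every library was 77.8 in KYSE150, against 81.4 over all such genes. In KYSE510 it was 86.2, against 85.9. A mean percentile above 95 was reached by 7 of 36 members in KYSE150 (15.8% of genes) and by 11 of 38 in KYSE510 (22.3%). The plot of tallest peaks by library shows all 40 members.

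**Figure D1:**
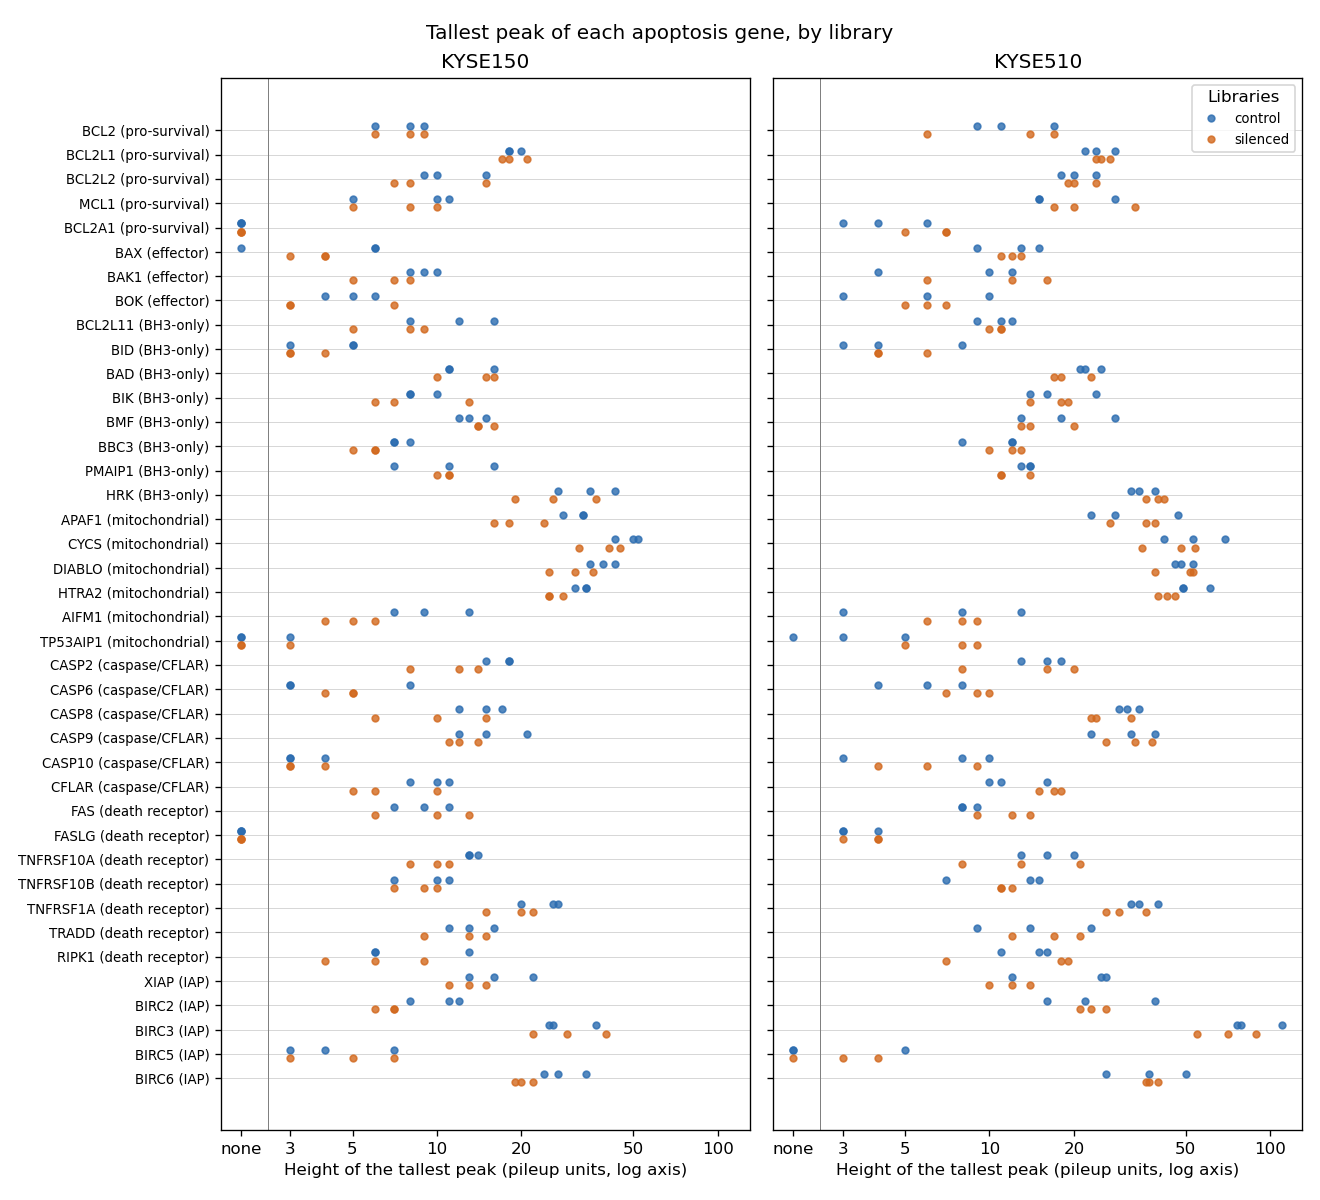
Height of the tallest peak (pileup units, log axis) of each of the 40 apoptosis genes, grouped by role, with 1 point per library and separate panels for KYSE150 and KYSE510; points at "none" had no peak of height 3 or more. BCL2A1 and FASLG sit at "none" in all 6 KYSE150 libraries, and BIRC3 reaches 55 to 110 in KYSE510.

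Of the 6 mitochondrial factors, CYCS, DIABLO, HTRA2 and APAF1 were among the 8 highest-ranked members in both lines, while AIFM1 and TP53AIP1 were low. CYCS, the electron carrier that nucleates the apoptosome, had heights of 43, 52 and 50 in KYSE150 control, 41, 45 and 32 in KYSE150 silenced, 69, 42 and 53 in KYSE510 control and 35, 48 and 54 in KYSE510 silenced libraries. Its mean percentile of 99.4 was the highest of the members in KYSE150, and in both lines the control and silenced libraries overlapped. DIABLO, which binds IAPs and relieves caspases of them, had 43, 35 and 39, then 36, 31 and 25 in KYSE150, and 48, 53 and 46, then 52, 39 and 53 in KYSE510, control before silenced. Its mean percentiles were 98.7 and 99.2, and its groups overlapped as well. The serine protease HTRA2 had 34, 34 and 31, then 28, 25 and 25 in KYSE150, and 61, 49 and 49, then 43, 46 and 40 in KYSE510. The ranks of the HTRA2 groups were apart only in KYSE510, lower in silenced libraries, as were those of 6.07% of genes.

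At CYCS and APAF1 the tallest peak covered the start site in all 12 libraries. At HTRA2 it did so in 2 of 6 libraries of each line, and at DIABLO in 1 of 6 KYSE150 and 5 of 6 KYSE510 libraries, although the merged site of either gene spans the start. Other genes lay near some of these sites. A start site of IKBIP lay within 1 kb of the leading peak of APAF1, one of AUP1 near that of HTRA2, one of LOC128125816 near that of DIABLO and one of ACTA2 near that of FAS. A peak there cannot be given to 1 gene of such a pair. Start sites were known only for genes with a promoter entry. A boundary of another gene's span, start or end, also lay within 1 kb of further leading sites. These were at BAD (GPR137 and PLCB3), BCL2L2 (BCL2L2-PABPN1), CASP2 (TMEM139), CYCS (SPMIP4) and TRADD (FBXL8). The TRADD site (chr16:67160669-67161253) lay outside the span of TRADD, which ends at 67159909. TP53AIP1, a p53-induced mitochondrial protein, was at the other end of the range, with 0, 3 and 0 in KYSE150 control and 3, 0 and 0 in KYSE150 silenced libraries.

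Among the pro-survival genes, BCL2L1 (BCL-XL) had the highest mean percentiles, 92.8 in KYSE150 and 95.4 in KYSE510. BCL2A1 had no peak of height 3 or more in any KYSE150 library. Without that minimum it had a lower peak in each of them. In KYSE510 its heights were 3, 4 and 6 in control and 5, 7 and 7 in silenced libraries. The KYSE510 heights are low, and the peak was present in all 6 libraries. BCL2 itself ranged from 6 to 9 in KYSE150 and from 6 to 17 in KYSE510.

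The effectors BAX, BAK1 and BOK, which form the mitochondrial pore or resemble the proteins that do, had modest peaks. Their mean percentiles were 32.7, 66.9 and 37.9 in KYSE150 and 82.1, 71 and 53.5 in KYSE510. BAX heights were 6, 0 and 6 in KYSE150 control, 4, 4 and 3 in KYSE150 silenced, 13, 15 and 9 in KYSE510 control and 13, 11 and 12 in KYSE510 silenced libraries. In KYSE150 1 control library had no peak of height 3 or more, only a lower one. Control and silenced heights overlapped in both lines.

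All 8 BH3-only genes had a peak in every library of both lines. HRK, which binds BCL2 and BCL-XL, led them with mean percentiles of 97.6 and 98.3, and BID, which is cut by caspase-8 and so joins the extrinsic to the intrinsic route, was lowest at 28.5 and 42.2. Mean heights of the 8 ran from 3.83 to 31.2 in KYSE150 and from 4.83 to 37.2 in KYSE510.

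Caspase genes differed in level. CASP9, the initiator of the intrinsic route, had the highest mean percentile of its group in both lines, 86.3 in KYSE150 and 97.2 in KYSE510. CASP10, a relative of CASP8, was lowest in both, at 21 and 54.9. Mean percentiles of CASP2 were 85.6 and 85.9, and those of CASP6, an executioner caspase, were 38.1 and 63.4.

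In the death receptor group the TNF receptor TNFRSF1A was highest, with mean percentiles of 94.5 in KYSE150 and 97.5 in KYSE510. FASLG, the ligand of FAS, had no peak of height 3 or more in any KYSE150 library, and a lower peak in each. In KYSE510 its heights were 3, 4 and 3 in control and 3, 4 and 4 in silenced libraries. These values sit at or just above the minimum height of 3. The 6 others had peaks in every library.

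The IAP genes ran from the tallest peak of all members in KYSE510 to the lowest. BIRC3 (cIAP2) had a mean percentile of 99.8 in KYSE510 and BIRC5 (survivin) one of 16.8. In KYSE150 these were 97.6 and 39.5. BIRC6, a very large IAP, stood at 96 in KYSE150 and 98.1 in KYSE510.

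Peaks of the 12 libraries merged into 227 sites at the members, of which 37 (16.3%) were present in all 12 libraries, against 9.56% of the regions at all genes. Another 88 sites were found in 1 library. The same site was tallest in all 12 libraries for 19 members. The leading site covered the start site in 23 members and lay inside the gene in 8 (BBC3, BCL2, BCL2L1, BID, FASLG, HRK, TNFRSF1A and TP53AIP1). In BAD it lay 14.57 kb downstream, at the other gene end. A boundary (start or end) of the spans of GPR137 and PLCB3 lay within 1 kb of that site too.

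Some of the inner sites stood far from the start. The leading site of BCL2 (chr18:63161664-63162156) lay 157.86 kb downstream of the start site and was the gene's tallest in all 12 libraries. That of TNFRSF1A (chr12:6336153-6336910) lay 5.54 kb downstream, with a mean height of 21.7 in KYSE150 and 32.8 in KYSE510. That of HRK (chr12:116878432-116879210) lay 2.62 kb downstream, with means of 31.2 and 37.2. BCL2L1 carried 17 sites, 4 of them in all 12 libraries, and its leading site lay 19.34 kb downstream. That site was tallest in 5 libraries and the site over the start (chr20:31723481-31724105) in 4. The leading site had mean heights of 17 in KYSE150 and 20.5 in KYSE510, and the start site 12.7 and 24.5. CFLAR carried 18, the most of any member.

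Present in all 6 KYSE510 libraries and in no KYSE150 library were 7 of the 227 sites (3.08%), against 3.09% of regions at all genes. They lay at BCL2A1 (2 sites), BAK1, HRK, FASLG, BIRC2 and BIRC3. The tallest was the HRK site 25.43 kb downstream of the start (chr12:116855710-116856318), with heights of 18, 14 and 9 in control and 10, 4 and 12 in silenced libraries. The BAK1 site, 9.02 kb downstream (chr6:33570745-33571768), had 8, 5 and 5, then 11, 8 and 10. No site showed the reverse pattern, which 0.337% of regions did.

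**Figure D2:**
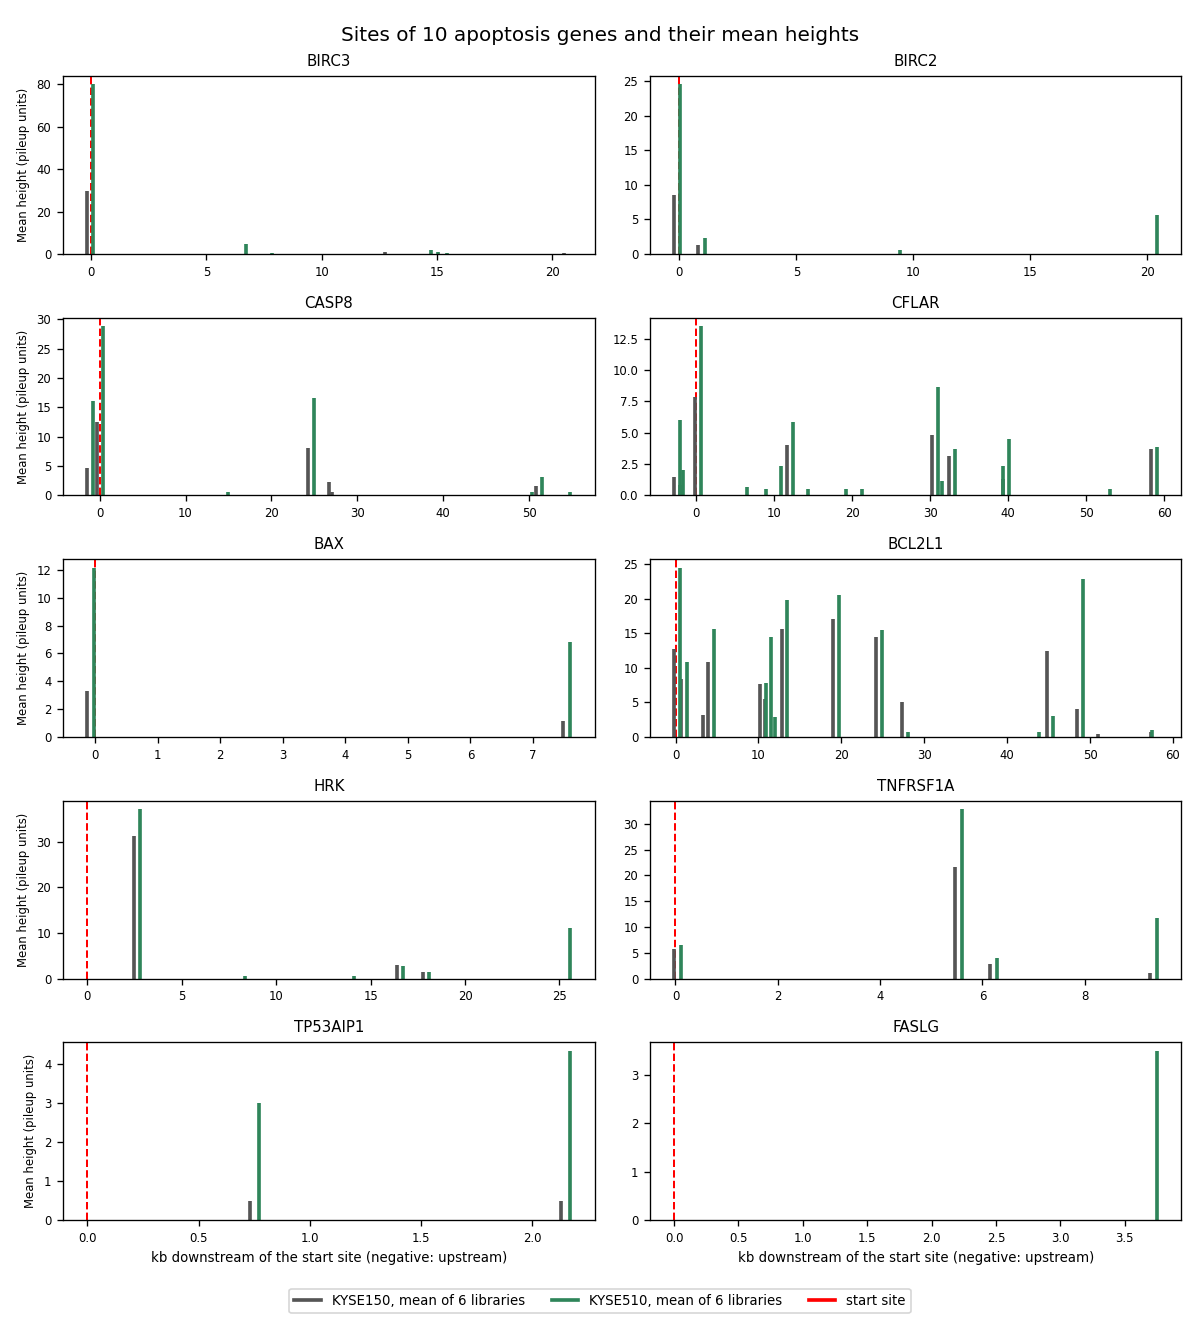
Mean height (pileup units, scale differs by panel) of each merged site of 10 apoptosis genes against its distance in kb from the start site (dashed line), with the KYSE150 and KYSE510 bars drawn side by side and therefore slightly displaced; each bar is the mean of 6 libraries. The tall bars of BIRC3, BIRC2, CASP8 and BAX stand at the start site, and those of HRK and TNFRSF1A lie 2.62 and 5.54 kb inside the gene.

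No apoptosis gene passed the test between HCP5-silenced and control KYSE150 libraries. Genes were ranked in each library by their tallest peak, ranks were turned into normal scores (a score of 1 lies 1 SD above the middle of the ranking), and scores were compared with limma. Of 37 members tested, 0 passed an adjusted p of 0.05, as did 0 of all 13465 genes tested (0%). At an unadjusted p under 0.05, limma called 0 members in either direction, against 2.81% of genes higher and 2.5% lower in the silenced libraries. No member was called under any of the alternative settings. The score difference was above 0 in 16 members and below 0 in 21, where 49.9% of all genes were above 0, and the standard errors of the members ran from 0.23 to 0.38. A miss of the threshold does not show that the groups are alike.

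AIFM1, a mitochondrial flavoprotein released in caspase-independent death, had heights of 13, 7 and 9 in control and 5, 4 and 6 in silenced KYSE150 libraries. Every silenced height was below every control height, as also at BIRC2 and BIRC6 among others, and the ranks of AIFM1 overlapped. The 95th percentile of peak height was 23 in each KYSE150 control library and 22, 20 and 18 in the silenced ones. The score difference of AIFM1 was -0.65 ± 0.29 (SE, unadjusted p = 0.0506, adjusted p = 0.944 by limma). APAF1, the scaffold of the apoptosome, had 33, 33 and 28 in control and 24, 18 and 16 in silenced libraries. It was the only member whose ranks were apart, lower in silenced libraries, as were 4.76% of genes, while 5.44% of genes and 0 members were apart in the other direction. Its score difference was -0.49 ± 0.24 (adjusted p = 0.96 by limma).

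BCL2L11 (BIM), a BH3-only protein that engages all pro-survival relatives, had 12, 8 and 16 in control and 9, 8 and 5 in silenced KYSE150 libraries, a score difference of -0.44 ± 0.28. The groups overlapped at 8 to 9. On the other side, BMF, a BH3-only protein, had 12, 15 and 13 in control and 14, 16 and 14 in silenced libraries, a difference of 0.35 ± 0.24. With only the peak over the start site this became -0.36, where a library without such a peak was given the height 0. BAD had 11, 11 and 16, then 15, 16 and 10 (0.30 ± 0.25), and with fold enrichment in place of height the difference was -0.07. BIRC3 had 26, 25 and 37, then 40, 29 and 22 (0.28 ± 0.26). Control and silenced heights overlapped in all of these, and the smallest adjusted p of any member was 0.944 by limma.

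By role, the differences of the 5 tested mitochondrial genes were all below 0 in KYSE150, with a median of -0.11, and those of the 4 tested pro-survival genes all above 0, with a median of 0.12. The other groups were split. The median over all members was close to the median of the mitochondrial group, at -0.11, and none of these differences passed the test. The third silenced library, which held the fewest peaks, had the lowest height or shared it in APAF1, CYCS, DIABLO and HTRA2. In AIFM1 it had the highest of the silenced heights (5, 4 and 6). The part of peak number in these values was not tested.

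In KYSE510 no apoptosis gene passed the test either. Of 39 members tested 0 were called by limma, as were 0 of 15566 genes (0%). At an unadjusted p under 0.05, TP53AIP1 and CASP6 were higher in the silenced libraries (2 of 39, against 3.73% of genes) and XIAP lower (1 of 39, against 3.05%). Ranks were apart in CASP6 and FAS, higher in silenced libraries (6.16% of genes), and in HTRA2, lower (6.07%). Differences were above 0 in 23 members and below in 16, where 49% of all genes were above 0. By role they were above 0 in 4 of 5 pro-survival, 3 of 3 effector, 4 of 8 BH3-only, 4 of 6 mitochondrial, 3 of 6 caspase, 4 of 7 death receptor and 1 of 4 IAP genes, and the mitochondrial median was 0.09, on the other side of 0 from that in KYSE150.

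TP53AIP1 had heights of 3, 5 and 0 in KYSE510 control and 5, 9 and 8 in silenced libraries. The groups met at 5. It was tested only through the silenced libraries, the mean height being 2.67 in control and 7.33 in silenced libraries against a minimum of 3. Its score difference of 1.08 ± 0.32 (adjusted p = 0.619 and unadjusted p = 0.00767, limma) is therefore a description. XIAP, the IAP that binds caspases most directly, had 25, 26 and 12, then 10, 14 and 12, so that the third control library lay among the silenced ones. Its difference was -0.63 ± 0.27 (adjusted p = 0.735, limma), and 0.09 with only the peak over the start site. CASP6 had 8, 4 and 6, then 9, 7 and 10, a difference of 0.51 ± 0.23 (adjusted p = 0.736, limma). Its ranks were apart while its heights overlapped, the first control library lying above the second silenced one.

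FAS, the receptor that recruits caspase-8 through FADD, had 9, 8 and 8 in KYSE510 control and 14, 9 and 12 in silenced libraries, a score difference of 0.41 ± 0.20. HTRA2 had a difference of -0.24 ± 0.19, which became 0.02 with only the peak over the start site. Its tallest peak covered that site in 2 of 6 KYSE510 libraries, and a library without a peak over it was given 0. BIRC3 had 110, 76 and 79 in control and 89, 55 and 71 in silenced libraries, a difference of -0.23 ± 0.21. The FAS groups met at 9 and the BIRC3 groups overlapped, and by limma the adjusted p was 0.754 for FAS, 0.872 for HTRA2 and 0.894 for BIRC3.

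**Figure D3:**
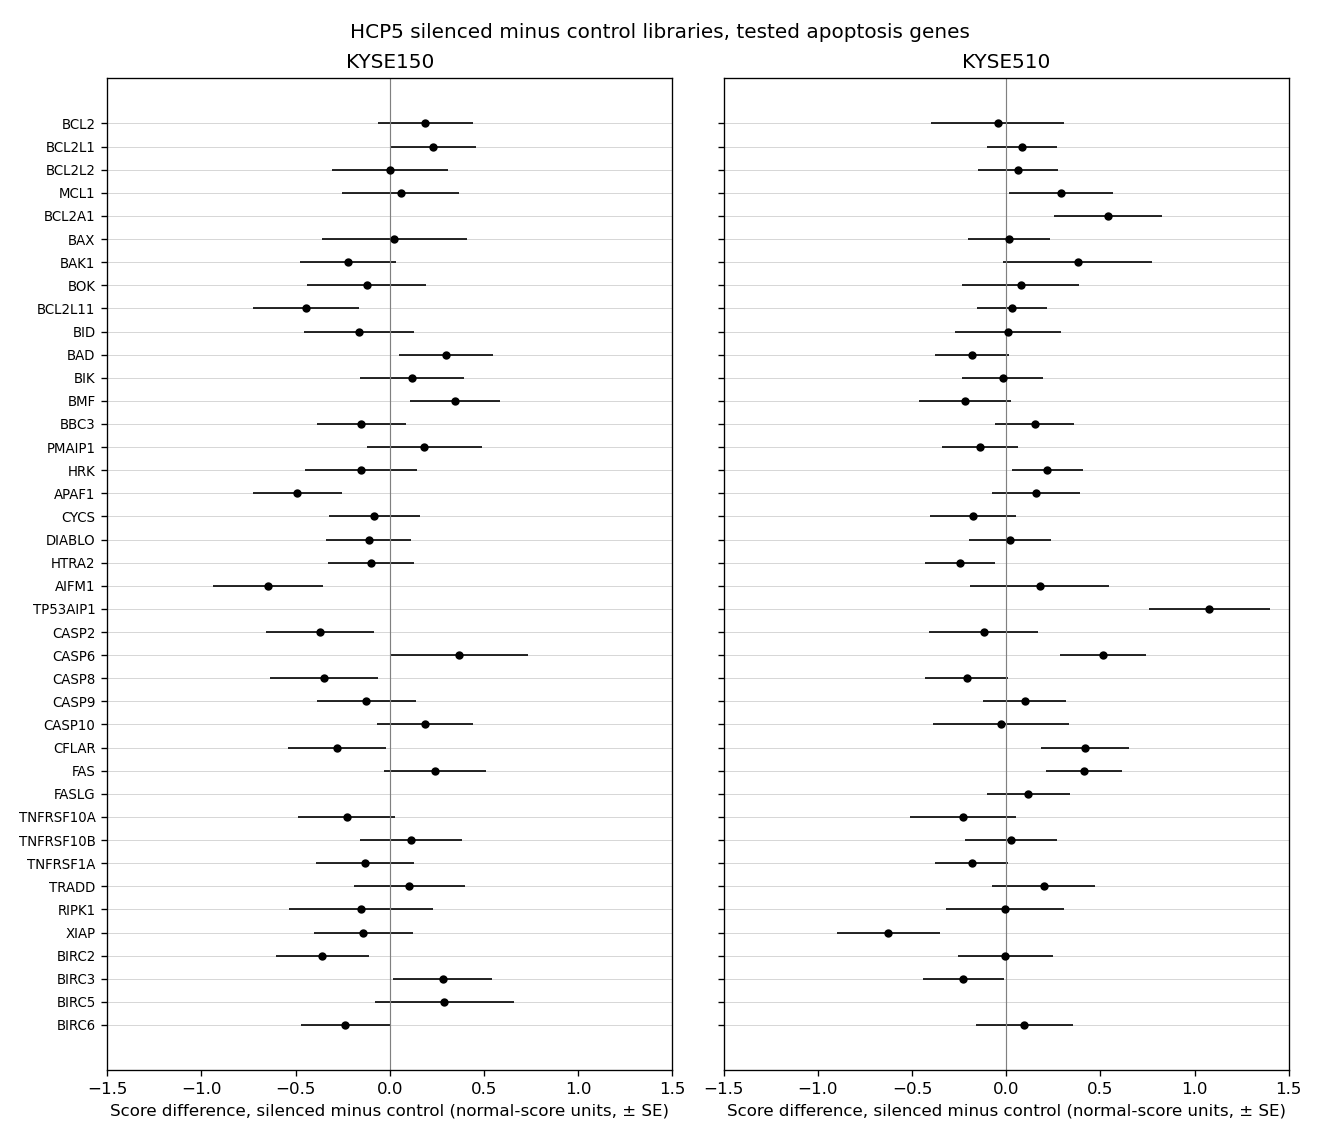
Score difference, silenced minus control (normal-score units), of the 37 members tested in KYSE150 and the 39 tested in KYSE510; points are limma estimates and bars ± 1 SE. Most bars cross or lie close to 0, and TP53AIP1 in KYSE510 lies farthest from it, at 1.08.

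Single regions were also compared by presence. Of 205 regions at the members in KYSE510, 4 were present in all 3 silenced and no control libraries (0.632% of regions at all genes were), and 2 in all 3 control and no silenced libraries (0.325%). Regions were merged over the 6 libraries of the line. The former lay in TP53AIP1 746 bases downstream of the start site (chr11:128941967-128942282, heights 4, 9 and 5) and 2492 bases downstream (chr11:128940126-128940632, heights 5, 5 and 8), over the start site of BCL2 (chr18:63319606-63319987, heights 3, 5 and 3) and in BCL2L11 (chr2:111155690-111156116, heights 3, 8 and 4). The control-only regions lay in BCL2 (chr18:63237891-63238351, heights 4, 4 and 4) and CFLAR (chr2:201129133-201129437, heights 5, 5 and 4). Some of these regions are parts of a longer site when peaks of all 12 libraries are merged. The site over the BCL2 start (chr18:63319606-63320972) then had heights of 5, 6 and 4 in KYSE510 control and 5, 5 and 3 in silenced libraries, and was in both groups. The farther TP53AIP1 site (chr11:128940126-128941308) had 3, 5 and 0 in control and 5, 5 and 8 in silenced libraries, so that 2 of 3 controls had a peak there. The other 4 regions stayed one-sided in KYSE510. Heights ran from 3 to 9 over the listed regions, and a region called absent may hold a peak under 3. In KYSE150, 0 of 141 regions were silenced-only (0.279% of regions at all genes) and 1, in TNFRSF10B, was control-only (0.642%).

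For no member did the effect of silencing pass the test of a difference between the lines. The test of the difference, KYSE510 minus KYSE150, called 0 of 38 members and 0 of 14880 genes (0%) by limma, and at an unadjusted p under 0.05 it called TP53AIP1 higher (2.83% of genes) and 0 members lower (2.72%). TP53AIP1, tested here too only through the silenced KYSE510 libraries, had a difference of 1.004 ± 0.42 (adjusted p = 0.844, limma). CFLAR had 10, 8 and 11, then 10, 6 and 5 in KYSE150, and 11, 10 and 16, then 18, 15 and 17 in KYSE510. In KYSE150 its silenced heights reached lower than the control ones, in KYSE510 higher, with overlap in both. The difference was 0.68 ± 0.33 (adjusted p = 0.894, limma), and -0.77 with only peaks within 1 kb of a gene end. APAF1, with 47, 23 and 28, then 36, 27 and 39 in KYSE510, had a difference of 0.64 ± 0.32 (adjusted p = 0.894, limma).

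Between the control libraries of the lines, limma called BIRC3 and CASP8 higher in KYSE510 (2 of 37 members, against 14.2% of 14934 genes) and BIRC5 lower (1 of 37, against 12.8%). The members' shares were below those of all genes. At an unadjusted p under 0.05, BAX, BIK, BIRC2, BIRC3, CASP8, CASP9 and MCL1 were higher (7 of 37, against 19.4% of genes) and AIFM1, BIRC5, CASP2 and FAS lower (4 of 37, against 20%). The labels record no batch. A difference between the lines and any step done separately for the libraries of each cannot be told apart.

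BIRC3 had heights of 26, 25 and 37 in KYSE150 control (29.3 ± 6.66, SD, n = 3) and 110, 76 and 79 in KYSE510 control libraries (88.3 ± 18.8). The ranks were apart. The score difference was 1.18 ± 0.22 (SE, adjusted p = 0.00261, limma), and the call held in 15 of 16 alternative settings. In the silenced libraries of the lines, a comparison added after values were seen, the difference was 0.68 ± 0.25 and was not called (adjusted p = 0.0627, limma). The peak, chr11:102317075-102317841, covers the printed promoter with its 2 NF-kB matches.

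BIRC2 (cIAP1) starts downstream of the end of BIRC3 on the same strand. It had 11, 12 and 8 in KYSE150 control and 39, 16 and 22 in KYSE510 control libraries, with ranks apart, a score difference of 0.73 ± 0.26 (adjusted p = 0.0599, limma). In silenced libraries it had 7, 7 and 6, then 23, 26 and 21, and the difference of 1.04 ± 0.22 was called (adjusted p = 0.00467, limma). The local background of small peaks (height 2 to 5) within 1 Mb of BIRC3, divided by the library's median, lay between 1 and 1.17 in KYSE150 and between 1.29 and 1.35 in KYSE510. Around BIRC2 it was 1 to 1.17 and 1.31 to 1.35. With fold enrichment, which divides by the background, BIRC3 differed by 0.92 (adjusted p = 0.0396, limma) and BIRC2 by 0.46 (adjusted p = 0.384). The part of this background in the difference between the lines was not tested beyond that.

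CASP8, the initiator of the extrinsic route, had 12, 17 and 15 in KYSE150 control (14.7 ± 2.52, SD, n = 3) and 31, 34 and 29 in KYSE510 control libraries (31.3 ± 2.52). The ranks were apart. The score difference was 0.66 ± 0.23 (adjusted p = 0.0488, limma), and it was called in 4 of 16 alternative settings and lost when any 1 of the 6 libraries was left out (adjusted p from 0.0503 to 0.152). In the silenced libraries, with 15, 10 and 6, then 32, 23 and 24, the difference of 0.77 ± 0.26 was called (adjusted p = 0.0477, limma). The site, chr2:201233205-201233848, covers the start site.

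BIRC5, which serves chromosome segregation as well as caspase control, had 3, 7 and 4 in KYSE150 control and 0, 0 and 5 in KYSE510 control libraries. The heights overlapped, the third KYSE510 library being above 2 of KYSE150, but the ranks did not. BIRC5 passed the minimum mean height only through KYSE150 (means of 4.67 and 1.67), so a difference was built into its being tested, and its score difference of -1.24 ± 0.35 (adjusted p = 0.0221, limma) is given as a description. It was called in 7 of 12 alternative settings. With no filter the difference was -0.76 (adjusted p = 0.0868) and with log2 heights the adjusted p was 0.108. The call was also lost without the third KYSE150 library (adjusted p = 0.0559) and without the first (0.104) or the second (0.0941) KYSE510 library. Without the second KYSE150 or the third KYSE510 library the gene fell under the minimum mean height of 3 and was not tested. In the silenced libraries, with 7, 3 and 5, then 4, 0 and 3, the difference was -1.42 ± 0.29 (adjusted p = 0.00413, limma), with the same limit.

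The silenced libraries also placed BAX, CASP9 and MCL1 higher in KYSE510 by limma, where the control libraries did not. The differences were 0.78 ± 0.22, 0.76 ± 0.23 and 0.88 ± 0.28, with adjusted p of 0.0188, 0.0289 and 0.0359 (limma). In that comparison 5 of 39 members were called higher and 1 lower, against 2028 and 1850 of 14809 genes. The members' shares were again below those of all genes. CASP9 had 12, 15 and 21, then 12, 14 and 11 in KYSE150, and 39, 32 and 23, then 38, 26 and 33 in KYSE510, and the ranks of its control libraries overlapped. MCL1, a short-lived pro-survival protein, had 11, 5 and 10, then 10, 8 and 5 in KYSE150, and 28, 15 and 15, then 33, 20 and 17 in KYSE510, and the ranks of its control libraries were apart. In the control libraries the score difference was 0.54 ± 0.24 for CASP9, 0.61 ± 0.26 for MCL1 and 0.79 ± 0.32 for BAX, with adjusted p of 0.119, 0.107 and 0.0889 (limma).

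**Figure D4:**
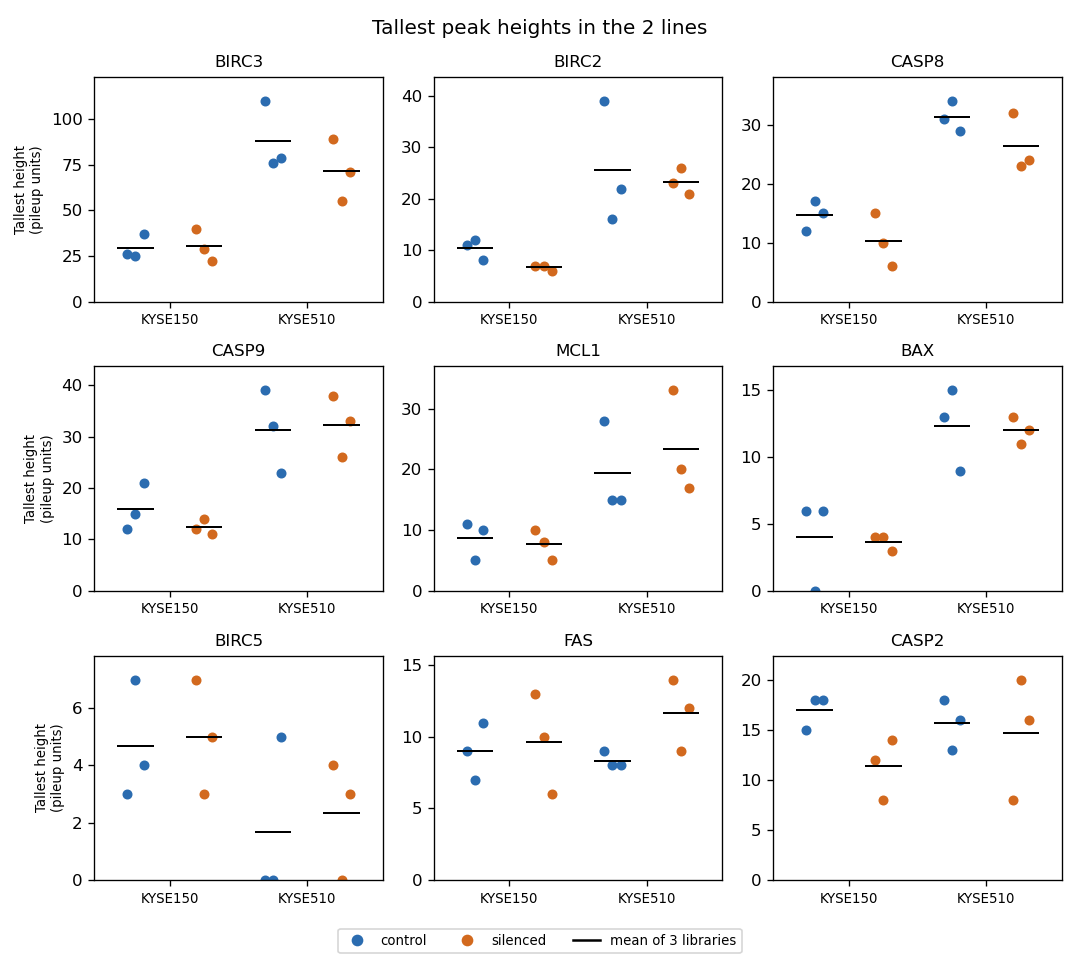
Height of the tallest peak (pileup units, linear axes from 0, scale differs by panel) of 9 apoptosis genes in the control and silenced libraries of KYSE150 and KYSE510; points are libraries and horizontal lines the means of 3 libraries. BIRC3 has means of 29.3 and 30.3 in KYSE150 and of 88.3 and 71.7 in KYSE510, while FAS, CASP2 and BIRC5 overlap in height; heights are not scaled between lines, and the median over all genes was 6.83 in KYSE150 and 10.3 in KYSE510.

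Ranks of 8 members were apart and higher in KYSE510 control libraries (BAD, BAX, BIK, BIRC2, BIRC3, CASP8, HTRA2 and MCL1), against 20.5% of genes, and those of BIRC5, CASP2 and FAS apart and lower, against 22%. FAS had similar heights in the lines, 9, 7 and 11 against 9, 8 and 8, while its score differed by -0.51 ± 0.21 (adjusted p = 0.0939, limma). The median over all genes of the mean tallest height was 6.83 in KYSE150 and 10.3 in KYSE510. An equal height therefore has a lower rank among genes in KYSE510. Among the peaks of a library, the mean percentile of FAS was 71.1 in KYSE150 control and 71.2 in KYSE510 control libraries. Differences were above 0 in 17 of 37 members, against 46.9% of all genes. By role they were above 0 in 4 of 4 pro-survival, 1 of 3 effector, 4 of 8 BH3-only, 1 of 5 mitochondrial, 3 of 6 caspase, 2 of 6 death receptor and 2 of 5 IAP genes.

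Other genes of the pathway gave the same counts for silencing. Of 40 further apoptosis genes, 32 were tested in KYSE150 and 36 in KYSE510, and 0 were called by limma in either. Of 20 p53 targets, 18 and 20 were tested and 0 called, and of 6 necroptosis genes 5 and 5, with 0 called. Between the control libraries, 7 of 35 further apoptosis genes were higher in KYSE510 (BCL2L12, BNIP3, DEDD, DFFB, FADD, TNFRSF25 and TNFSF10; 14.2% of all genes) and 2 lower (CASP4 and DAPK3; 12.8%). BNIP3 (0, 3 and 3 in KYSE150 control, 8, 10 and 8 in KYSE510 control) passed the minimum mean height of 3 only through KYSE510. So did TNFRSF25 (3, 0 and 3, then 10, 11 and 8), while CASP4 (6, 4 and 3, then 3, 5 and 0) passed it only through KYSE150. Their calls are descriptions. FADD, the adaptor that joins FAS to caspase-8, had mean heights of 5.5 in KYSE150 and 23.7 in KYSE510 over 6 libraries each, and its score difference in control libraries was 1.06 ± 0.22 (adjusted p = 0.00475, limma). TNFSF10, the TRAIL ligand, differed by 0.71 ± 0.22 (adjusted p = 0.0327, limma). Of 19 p53 targets tested between the lines, BTG2, GADD45A, SESN2, SPATA18 and TP53INP1 were higher in KYSE510 (5 of 19, against 14.2% of all genes) and MDM2, the ligase that marks p53 for degradation, lower (1 of 19, against 12.8%). SPATA18 had 0, 0 and 0 in KYSE150 control and 11, 8 and 11 in KYSE510 control libraries, and BTG2 had 3, 0 and 5, then 27, 14 and 19. Both passed the minimum mean height of 3 only through KYSE510, so a difference was built into their being tested. Of 5 necroptosis genes tested, 1 was higher, FADD again.

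Markers of other cell types were scored in the same way. A peak in every library of KYSE150 was found at 2 of 6 leukocyte, 2 of 6 fibroblast and 4 of 5 endothelial markers. In KYSE510 the numbers were 2, 3 and 4. The share over all genes was 60.9% in KYSE150 and 72.7% in KYSE510. The summed height of the leukocyte markers ran from 34 to 40 in KYSE150 control, 29 to 39 in KYSE150 silenced, 44 to 52 in KYSE510 control and 47 to 57 in KYSE510 silenced libraries, with LYZ at 0 in all 12. Between the control libraries limma called PTPRC (leukocyte) and TEK (endothelial) higher in KYSE510 and COL1A2 (fibroblast) lower, and of the squamous markers KRT17, PKP1 and SFN higher and KRT5 lower. KRT17 (3, 0 and 3 in KYSE150 control, 34, 17 and 20 in KYSE510 control) passed the minimum mean height only through KYSE510. COL1A2 (5, 9 and 5, then 0, 3 and 5) passed it only through KYSE150. A peak anywhere in a gene's span does not show that the gene is expressed, and the part of other cell types in the results was not tested.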

How the data were processed

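Peak tables of 12 ATAC-seq libraries, 1 per library and not pooled, were used, with groups taken from the labels. Per the submitters' processing notes the build was GRCh38 and the tools included Trimmomatic 0.36, Bowtie2 2.2.6, Picard 2.8.2, MACS2 2.1.1 and bedtools 2.25.0, with no settings given. Per the file headers, the authors deposited for each peak its pileup (a signal in whole numbers, not a read count), its fold enrichment (a ratio to the local background) and a linear p-value with an FDR. No list held a p-value above 0.00987. Values were not scaled between libraries, read depth is unknown, and no counting interval was computed. The KYSE150 lists held 546453 to 629921 peaks and the KYSE510 lists 115761 to 135841, most of the former under a height of 3.

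From these, the tallest peak of height 3 or more was taken for each of 20037 protein-coding genes of the RefSeq table (GRCh38.p14, span with 1 kb on either side). Genes with a mean tallest height of at least 3 over the libraries of a fit were ranked in each library, and normal scores of the ranks were tested with limma 3.58.1 in R 4.3.3 (lmFit and eBayes, two-sided, Benjamini-Hochberg adjusted p under 0.05 over all genes tested). Silencing was tested within each line, the lines in their control libraries, and silencing by line in all 12 libraries. Tables and figures were made with Python 3.11.15, numpy 2.4.6, pandas 2.3.3 and matplotlib 3.10.9, and the fits were tested on simulated data. Nothing in the labels says that libraries of a group came from separate cultures, so p-values measure the spread between these libraries, which may be technical.

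The members and lists were chosen with earlier results of these data known. Values in every library are given for members called in any comparison, for the 3 of smallest p in each direction of silencing per line, for the 3 of smallest p for silencing by line, for the 3 highest in each line, and for those without a peak in a line. BIRC2, BAX, CASP9, MCL1 and the other members and list genes named with values were chosen after their values were seen. Alternatives were log2(height + 1) centred on the median, fold enrichment, no minimum height, a minimum height of 5, an FDR of at most 0.05, peaks near gene ends, no filter, each library left out, a replicate block and all 12 libraries in 1 fit. The peak over the start site and the silenced libraries of both lines were added after the data were seen.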

Additional observations from a re-analysis of the deposited data

How the results depend on the processing

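No member was called for silencing in either line, or for silencing by line, under any alternative run. Over all genes, 0 calls in KYSE150 became 3 with all 12 libraries in 1 fit, 1 with log2 heights, 29 with no filter, 1 with no minimum height, 4 with the peak over the start site, and 0 to 2 with 1 library left out. In KYSE510, 0 became 10 with all 12 libraries in 1 fit, 1 with log2 heights, 1 with the peak over the start site, 2 near gene ends and 0 to 2 with 1 library left out. For silencing by line, 0 became 1 with fold enrichment, 22 with log2 heights, 15 with no filter, 1 with no minimum height, 3 over the start site, 1 near gene ends and 0 to 2 with 1 library left out.

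Between the lines, the 3 member calls became 1 with log2 heights, 8 with no filter, 1 over the start site, 6 in the silenced libraries and 1 to 3 with 1 library left out. The 4045 calls over all genes became 2412 with fold enrichment, 7184 (2625 higher and 4559 lower) with no filter, 1101 over the start site and 2439 near gene ends. Fewer genes were tested in the last 2. In the silenced libraries 2028 of 14809 genes were called higher and 1850 lower. Members with a peak in every library, 36 in KYSE150 and 38 in KYSE510, became 15 and 17 of 32 over the start site. With no minimum height they became 39 and 38 (84.6% and 74% of genes), the larger number then being in KYSE150. With a minimum height of 5 they became 29 and 30 (47.8% and 61.8% of genes).

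Score differences that changed sign were BMF (-0.36) in KYSE150, XIAP (0.0879) and HTRA2 (0.0237) in KYSE510 over the start site, BAD (-0.0658) in KYSE150 with fold enrichment, and CFLAR for silencing by line (-0.77) near gene ends. In the start-site setting a library without a peak over that base was given 0. The tallest peak covered it in 2 of 6 KYSE510 libraries at HTRA2 and at XIAP. The causes were not tested.

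Replicate numbers are shared by the groups of a line. Deviations of the scores from the group mean were correlated between control and silenced libraries. For the same number the correlations were 0.0362, 0.0471 and 0.00932 in KYSE150 and 0.0752, 0.0521 and 0.0347 in KYSE510. For different numbers they ran from -0.0471 to 0.0118 in KYSE150 and from -0.0577 to 0.00475 in KYSE510. The same-number values were small but all above 0, and the labels do not say what libraries of 1 number share. With the replicate block, 0 members and 0 genes were called in each line and for silencing by line. Every library correlated best with its own number except the third KYSE150 control, which did so with the first silenced library (0.0118).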
